A study of Mus musculus with 3 samples.

Results

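The plasminogen activators, their receptor and serpin inhibitors, and 3 further serine proteases measured in the ovary were followed in mouse ovaries with and without Cre directed at floxed alleles of Bmal1, which encodes the clock factor BMAL1. The 8 genes, of 27975 named on the array, are Plat, Plau, Plaur, Serpine2, Serpinb2, Prss23, Prss35 and Ela1 (current symbol Cela1). They were found by the gene name printed for each non-control probe of the array, which gave 15 of the 41174 different probes. Of these, 12 probes of 7 genes were well above background in 1 genotype on every array, and Serpinb2 had no such probe.

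The conditional knockout (cKO) ovaries came from females with both floxed Bmal1 alleles and Cre recombinase under the promoter of sf-1, written Bmal1fxfxCresf-1 in the labels. The control ovaries came from females with the same floxed alleles and no Cre, written Bmal1fxfx (wild type), so the floxed allele is common to both genotypes. All were C57Bl/6J females of 10 weeks, kept with 12 hours of light a day, fed freely and killed at Zeitgeber time 12 (lights off) 3.5 days after copulation. On each of 3 two-colour arrays a pool of RNA from 3 cKO animals (cy3) was hybridised with a pool from 3 control animals (Cy5). The sf-1 promoter is active in the steroid-producing and supporting cells of the ovary, and whole ovaries were extracted, so RNA of cells without Cre is part of both pools. On arrays 2 and 3 the number that ends the cKO genotype label is that of the array, and these arrays were assigned by their titles. cKO was always in cy3, so the effect of the dye and that of the genotype cannot be told apart.

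Plasminogen activators are serine proteases that cut the circulating zymogen plasminogen to plasmin, which degrades fibrin and matrix proteins and activates other proteases. Tissue-type (Plat) and urokinase-type (Plau) activator are the known forms, the urokinase receptor (Plaur) holds urokinase at the cell surface, and serpins such as Serpine2 (protease nexin 1) and Serpinb2 (plasminogen activator inhibitor type 2) inhibit the activators by forming a covalent complex. In the rodent ovary the system is known for its regulation by gonadotropins around ovulation and for its expression in the forming and regressing corpus luteum. Prss23 and Prss35 are secreted proteins of the trypsin fold that were described in the mouse ovary. Ela1 is an elastase first known from the exocrine pancreas.

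Because each result rests on short probes, the probes that carry it are shown first, as the array files give them, 5′ to 3′. Probe 1 is the brightest of its gene. Both Ela1 probes are shown because the largest difference rests on them, and the 3 Plat probes because they differ in size. They share no run longer than 5 bases within a gene, so each reads its own stretch of transcript. The gene of Ela1 lies on chromosome 15 and that of Plat on chromosome 8 (GRCm38.p6).
Ela1 probe 1: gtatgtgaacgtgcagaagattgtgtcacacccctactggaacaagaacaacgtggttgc
Ela1 probe 2: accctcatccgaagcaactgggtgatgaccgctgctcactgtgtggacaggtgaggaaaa
Plat probe 1: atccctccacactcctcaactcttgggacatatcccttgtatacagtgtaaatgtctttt
Plat probe 2: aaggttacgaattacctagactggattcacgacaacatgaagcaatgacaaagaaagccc
Plat probe 3: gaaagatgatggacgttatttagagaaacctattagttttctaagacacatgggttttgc

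The 2 Serpinb2 probes (chromosome 1) are shown because they overlap. The capitals mark the 20 bases they share, so both read nearly the same place and are not independent readings.
Serpinb2 probe 1: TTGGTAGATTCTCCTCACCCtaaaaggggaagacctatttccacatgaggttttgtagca
Serpinb2 probe 2: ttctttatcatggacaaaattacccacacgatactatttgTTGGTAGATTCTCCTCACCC

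The arrays did not resemble each other evenly. Over the 17858 genes tested, Pearson's r between the log2 ratios was 0.601 for arrays 1 and 2, 0.213 for arrays 1 and 3 and 0.00858 for arrays 2 and 3, which share a slide, while array 1 lay on another. The deposited log ratios over all probes gave -0.214 for arrays 2 and 3. Spots well above background made up 67.4% to 69.1% in the cKO channel and 62.9% to 65.8% in the control channel. The targeted gene, Arntl, was at 0.06 ± 0.27 (SD, n = 3), but which part of it the floxed allele removes is not stated, so this checks neither the deletion nor the labels. All 10 genes taken as defining the ovary, such as Star and Foxl2, were well above background in both channels on every array. Of them 1 passed over all genes, Star, lower at -4.09 ± 0.13. Their summed signal, Star included, was 106854 to 134396 in cKO pools and 162275 to 223873 in control pools. The median log2 ratio of the 10 was -0.15, -0.17 and -0.66 on arrays 1 to 3, and the part of Star in the sum was not tested.

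Signals are given in arbitrary units after normexp background correction with an offset of 50, loess within each array and quantile scaling of the mean brightness between arrays. Log2 ratios have cKO on top and control below, with the SD between arrays (n = 3). They were tested against 0 with limma across all genes, each gene being read by its brightest probe, with Benjamini-Hochberg adjustment. Of all genes tested, 0.174% passed an adjusted p of 0.05, 12 genes (0.0672%) higher and 19 (0.106%) lower in cKO ovaries; with the scanner software's own log ratios these were 27 and 26, and with median centring in place of loess 0 and 1. Of the 7 members tested, 1 passed, Ela1, which was lower. The p-values measure the spread between pools, not between animals.

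**Figure D1:**
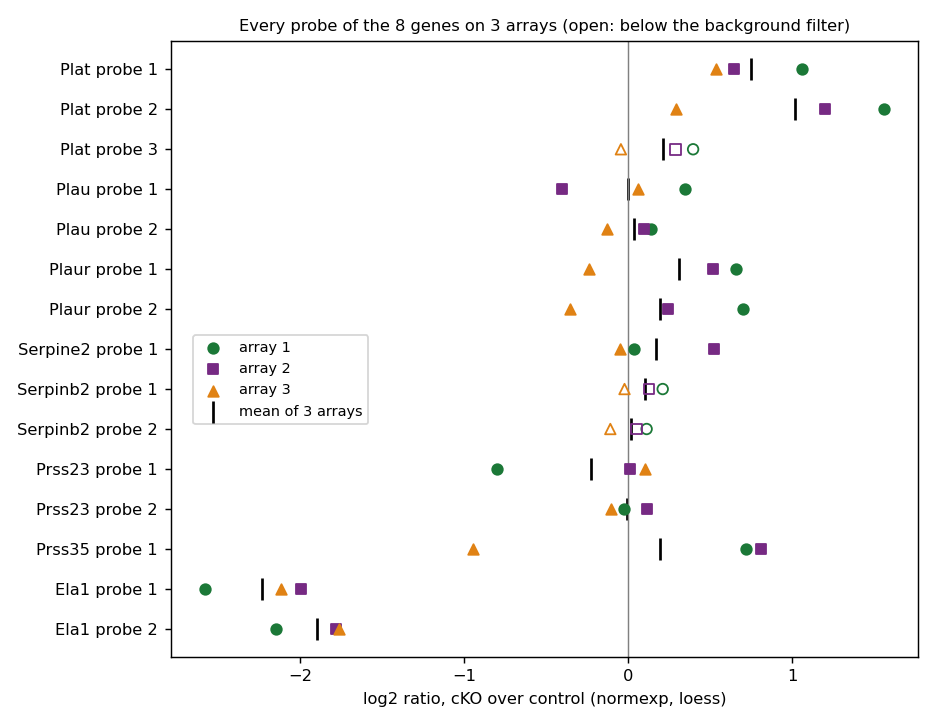
Log2 ratio of cKO over control (x axis) for each of the 15 probes of the 8 genes (rows), with a symbol for each array and a black bar for the mean of 3 arrays; open symbols are probes below the background filter. Both Ela1 probes lie between -2.58 and -1.76 on every array, whereas most other genes have symbols on both sides of 0.

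Ela1 was lower in cKO ovaries on every array and by both probes. Probe 1 had signals of 182, 216 and 180 in the cKO pools of arrays 1 to 3, against 1092, 858 and 779 in the control pools. The lowest control pool was far above the highest cKO pool, and the 3 cKO pools were close together. The log2 ratio was -2.23 ± 0.31, a 4.69-fold lower signal (limma, adjusted p = 0.0433; 95% interval -2.67 to -1.79). In whole-ovary RNA, fewer cells that express a gene and less RNA of it per cell cannot be told apart.

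The second Ela1 probe is listed under a different transcript record and shares no run longer than 5 bases with the first. It gave signals of 185, 218 and 183 in cKO pools and 816, 750 and 619 in control pools. Its ratios were -2.14, -1.78 and -1.76, against -2.58, -1.99 and -2.12 for probe 1. Array 1 thus had the lowest ratio by both probes. With the scanner software's log ratios the means were -2.38 ± 0.26 and -2.25 ± 0.24, so neither processing brought the probes near 0.

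The size of the Ela1 difference moved little while its call did not hold everywhere. Within the slide of arrays 2 and 3 it was -2.05, and with the slide as a block -2.32 (limma, adjusted p = 0.0269, a fit added after seeing the data). The adjusted p rose to 0.0587 when each probe was tested by itself, 0.0719 with median centring, 0.11 with the arrays scaled to a common spread, 0.171 without a filter on dim probes and to values between 0.0511 and 0.1 when any 1 array was left out.

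Since Ela1 is known from pancreatic acinar cells, markers of those cells were read on the same arrays. Of 10 such genes 8 were tested and 0 passed (limma; 2 had an unadjusted p under 0.05, both lower, Cela3b and the amylase Amy2a5). Pnlip and Prss2, the pancreatic lipase and a trypsinogen, were well above background in no channel on any array. The median log2 ratio of the list was -0.20, -0.22 and 0.07 on arrays 1 to 3. The summed signal of its 8 genes was 1766 to 1929 in cKO pools and 2215 to 3252 in control pools, without overlap. All 8 were well above background on every array in the control channel, but 6 in the cKO channel. Some genes thus entered the sum through the control channel alone. The filter itself favours a lower cKO sum, so the gap between the sums is a description only. The part of these cells in the Ela1 result was not tested. Cela3b, a second elastase on that list, had ratios of -0.90, -1.65 and -0.54, a mean of -1.03 ± 0.57 (limma, adjusted p = 0.272).

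BMAL1 acts with a partner on E-boxes, for which the 250 bases before each start site were read in RefSeq's GRCm38.p6 promoters (6 of the 8 members matched). The canonical letters CACGTG stood in 0 of these 6 genes' windows, while 6.02% of all 32851 windows hold them. The looser form CANNTG, which includes CACGTG and reads the same on both strands, stood in 66.2% of all windows. Most of the 13 windows of the members belong to Prss23, and some of these overlap, so the windows are not independent. CANNTG stood in 9 of the 13, from 3 of the 6 genes (Serpine2, Prss23 and Ela1). It stood in 0 windows of Serpinb2, Plaur and Prss35. The Ela1 window has it 5 times, and 1.15% of all windows (379) hold 5 or more; the window was singled out after the Ela1 value was seen, and the share is a description. It is given on the minus strand at chr15:100687921-100688170, with the matches in capitals, and is shown as the promoter of the 1 member that passed.
Ela1 promoter: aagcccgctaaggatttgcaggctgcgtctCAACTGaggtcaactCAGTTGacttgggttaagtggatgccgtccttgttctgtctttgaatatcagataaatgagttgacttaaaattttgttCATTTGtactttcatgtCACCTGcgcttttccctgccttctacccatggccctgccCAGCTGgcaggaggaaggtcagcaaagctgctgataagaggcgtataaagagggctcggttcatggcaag

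A match of letters is a description of the window and not of binding. The genes whose ratios lay nearest to those of Ela1 over the 3 arrays, by Euclidean distance among all genes with a symbol, were Cst8 (0.401), Tm7sf2 (0.638), Cited1 (0.649), Ms4a10 (0.649) and Clic3 (0.653). Cst8, a cystatin, had ratios of -2.80, -2.26 and -2.32. Tm7sf2, a sterol reductase of cholesterol synthesis, had -1.95, -1.93 and -2.14.

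**Figure D2:**
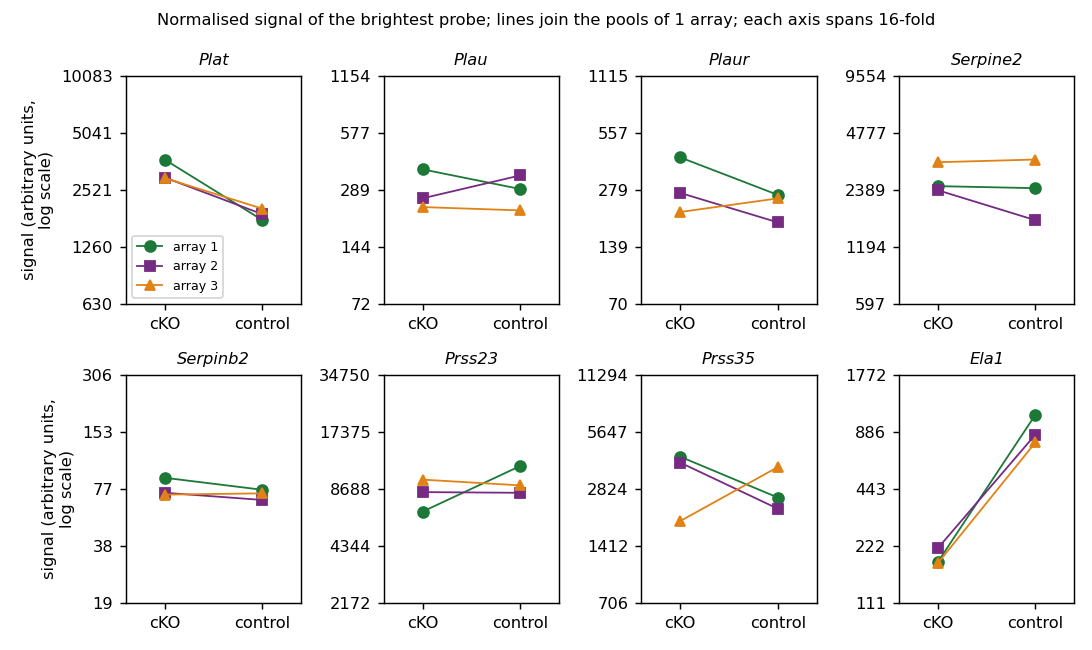
Normalised signal (y axis, log scale, arbitrary units; all panels span the same fold) of the brightest probe of each gene in the cKO pools (left) and control pools (right), lines joining the pools of 1 array. Ela1 falls into separate ranges, Plat is higher in each cKO pool, and the lines of Plaur, Prss35 and Prss23 cross between arrays.

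Among the activators, Plat had higher signals in all cKO pools but did not pass over all genes. Probe 1 gave 3638, 2929 and 2908 in cKO pools and 1746, 1876 and 2006 in control pools. The ranges did not overlap, and array 1 had the widest gap. The log2 ratio was 0.75 ± 0.28, or 1.68-fold (limma, unadjusted p = 0.00618, adjusted p = 0.253; 95% interval 0.33 to 1.16).

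The other Plat probes were less even. Probe 2 had 1262, 904 and 868 in cKO pools and 427, 393 and 708 in control pools, with log2 ratios of 1.56, 1.20 and 0.29. Array 3 was thus the smallest by both probes. By the scanner software's log ratio the value on array 3 was -0.0039, so the sign on array 3 depends on the processing for this probe. Probe 3, below the filter, gave 0.40, 0.29 and -0.04, with a spot well above background on 2 arrays in the cKO channel and 0 in the control channel.

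Fibroblast and matrix genes were read beside Plat. Of 9 such genes 5 were above 0 on all arrays (17.5% of all genes) and 1 below 0 on all (17.8%). The list medians were 0.67, 1.12 and 0.19 on arrays 1 to 3. Their summed signal was 43758 to 64051 in cKO pools and 35337 to 41013 in control pools, without overlap. The sum of 10 macrophage genes did not overlap either, at 30769 to 67812 in cKO pools and 15349 to 25789 in control pools. The median log2 ratio of these macrophage genes on array 3 was nevertheless -0.33, with only Lyz2 (0.46) and Fcgr1 (0.20) above 0 there. Among the other lists, the sums of granulosa, luteal, endothelium and smooth muscle genes overlapped between the genotypes. Of the 9 fibroblast and matrix genes, 0 passed over all genes (limma, 4 with an unadjusted p under 0.05, all higher). The part of these cells in the Plat values was not tested.

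Plau, the urokinase-type activator, differed in direction between arrays. Its brightest probe had 370, 260 and 234 in cKO pools and 292, 344 and 225 in control pools, and the groups overlapped. The log2 ratios of 0.34, -0.40 and 0.06 gave a mean of 4.5e-04 ± 0.38 (limma, adjusted p = 0.999; 95% interval -0.48 to 0.49). A second probe, nearer background, was at 0.04 ± 0.14.

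Plaur, the receptor of urokinase, was higher in the cKO pool on arrays 1 and 2 and lower on array 3. Probe 1 had 414, 269 and 213 in cKO pools and 262, 188 and 251 in control pools, with overlap. Its log2 ratio was 0.31 ± 0.48 (limma, adjusted p = 0.643; 95% interval -0.26 to 0.88). With the scanner software's log ratio the mean was 0.73 ± 0.63, and array 3 stood at 0.013. Leaving out array 1 gave 0.14 and leaving out array 3 gave 0.59 (limma, unadjusted p = 0.00667, adjusted p = 0.0993). Probe 2 had the signs of probe 1 on each array, with ratios of 0.70, 0.24 and -0.35.

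Macrophages carry the urokinase receptor. Of 10 macrophage genes 7 had the signs of Plaur, above 0 on arrays 1 and 2 and below 0 on array 3. So had 5 of 6 smooth muscle and 3 of 4 mast cell genes, and these signs are not particular to macrophage genes. Over all genes tested, 71.4% had the same sign on arrays 1 and 2, and 35.2% had 1 sign on all 3 arrays. The share of all genes with the signs of Plaur was not counted, so the 7 of 10 is not a result about macrophage genes. Lyz2 and Fcgr1 were above 0 on all arrays and Mrc1 below 0 on all. The median of 10 macrophage genes was 0.94, 0.98 and -0.33 on arrays 1 to 3, and their summed signal was 67812, 41734 and 30769 in cKO pools and 15349, 18794 and 25789 in control pools, so that the sum was higher in cKO on array 3 too. All 10 were well above background in both channels, and 0 passed over all genes (limma; 2 had an unadjusted p under 0.05, both higher). The part of these cells in the Plaur values was not tested.

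Of the serpins, Serpine2, which inhibits thrombin and both activators, had 2499, 2378 and 3343 in cKO pools and 2438, 1652 and 3454 in control pools. The groups overlapped, and array 2 alone departed from 0 by more than 0.1. Its log2 ratio was 0.17 ± 0.31 (limma, adjusted p = 0.755; 95% interval -0.27 to 0.61). It was read by 1 probe.

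Serpinb2, the type 2 inhibitor of urokinase, lay near the background of the arrays. Its brighter probe had 87.7, 73.1 and 71.4 in cKO pools and 75.8, 67.0 and 72.6 in control pools, of which 2 and 1 spots were well above background. These signals include the offset of 50 and overlap between the genotypes. The log2 ratio was 0.10 ± 0.12, against 0.92 ± 1.01 with the scanner software's log ratio, and neither was tested because the probe failed the filter.

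Prss23, a secreted protease, showed its widest gap on array 1. Probe 1 had 6587, 8354 and 9720 in cKO pools and 11457, 8282 and 9067 in control pools. Its log2 ratios of -0.80, 0.01 and 0.10 gave -0.23 ± 0.50 (limma, adjusted p = 0.751; 95% interval -0.81 to 0.35). The second probe, nearer background, had -0.02, 0.11 and -0.10 and did not show the gap of array 1.

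Prss35, whose catalytic serine is replaced and which is therefore taken as an inactive protease, had the widest spread of the 8 genes. Its single probe gave 4176, 3886 and 1909 in cKO pools and 2542, 2220 and 3678 in control pools. The cKO pool was higher on arrays 1 and 2 and lower on array 3. The log2 ratio was 0.19 ± 0.99 (limma, adjusted p = 0.899; 95% interval -0.83 to 1.21), and with the scanner software's log ratio the mean was on the other side of 0, at -0.039 ± 0.99. Of 6 smooth muscle genes 5 had the same signs, the exception being Smtn, below 0 on all arrays. The share of all genes with these signs was not counted, so this count is not a result about smooth muscle genes. The list had medians of 0.20, 1.07 and -1.0 on arrays 1 to 3. Its summed signals were 17524 to 46840 in cKO pools and 18922 to 35086 in control pools, with overlap. The medians of the macrophage list and of 4 mast cell genes (0.42, 0.65 and -0.41) had these signs too, and the part of such cells in the Prss35 values was not tested. The signs were counted in every list, and these lists are given after the counts were seen. Elsewhere 0 of 10 granulosa, 1 of 9 luteal, 1 of 9 fibroblast and 2 of 4 theca genes had them.

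Counted together, 2 of the 7 genes tested, Plat and Ela1, had 1 sign on all arrays, which 35.2% of all genes had. Plat was the 1 above 0 throughout (17.5% of all genes) and Ela1 the 1 below 0 throughout (17.8%). The pools did not overlap between genotypes for the same 2 genes, against 19.7% of all genes, with cKO above control in Plat (9.96% of all genes) and below it in Ela1 (9.79%). An unadjusted p under 0.05 was likewise reached by these 2 (limma), against 12.3% of all genes, of which 5.9% of all genes were higher and 6.42% lower. These shares of the 7 genes rest on 2 genes. The median log2 ratio of the 7 was 0.17, and that of all genes -1.7e-05. The median size, taken without sign, was 0.23 for the members and 0.17 for all genes.

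**Figure D3:**
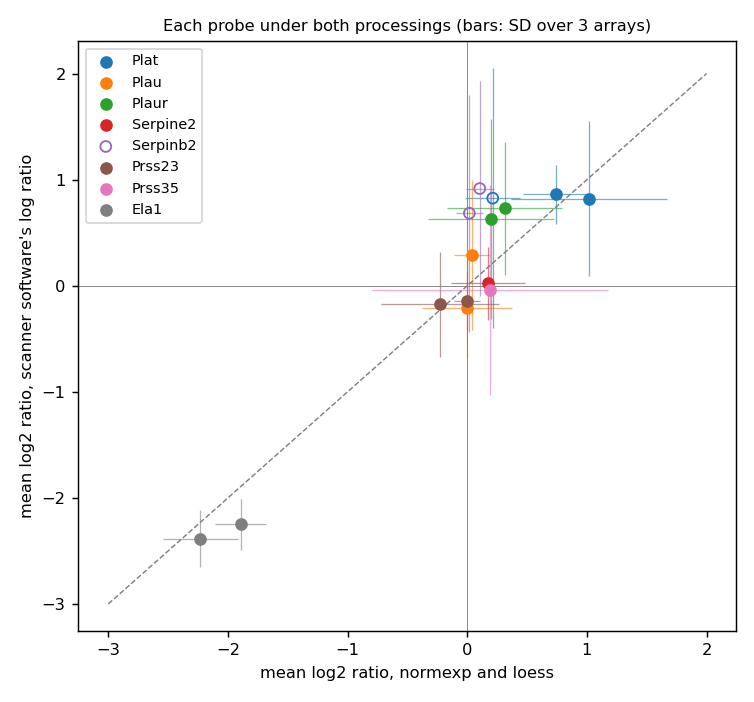
Mean log2 ratio of each of the 15 probes after normexp and loess (x axis) and by the scanner software's log ratio (y axis), colours marking genes, bars the SD over 3 arrays, open circles probes below the filter and the dashed line equality. The Ela1 probes and the 2 bright Plat probes lie near the line, while the Serpinb2 probes move from 0.02 and 0.10 to 0.68 and 0.92. The third Plat probe moves from 0.21 to 0.83, and the Plaur probes from 0.31 and 0.20 to 0.73 and 0.63.

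Of 14 other genes of the plasmin system, 11 were tested and 0 passed (limma; 2 had an unadjusted p under 0.05, both higher), with a median of -0.03. Plasminogen itself (Plg), Klkb1 and F12 were well above background in no channel on any array; plasminogen is made mainly by the liver. The largest values were A2m, a broad protease inhibitor of plasma, at 1.34 ± 0.43 with ratios of 1.66, 1.49 and 0.86 (adjusted p = 0.169), thrombomodulin, Thbd, at 0.81 ± 0.50 (adjusted p = 0.304), and Serpina5, the protein C inhibitor, which also inhibits urokinase, at -0.59 ± 0.53 (adjusted p = 0.416). A second A2m probe, below the filter, was at 0.17, and a second Serpina5 probe at -0.16.

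Of 56 other serpins on the array, Serpina5 again among them, 30 were tested and 0 passed (limma; 2 had an unadjusted p under 0.05 higher and 4 lower), with a median of -0.03. Serpinb8, an intracellular serpin, had 1.11, 0.37 and 0.96, a mean of 0.81 ± 0.39 (adjusted p = 0.266), and its second probe 0.37. Serpinb6a was at -0.67 ± 0.47 (adjusted p = 0.347), its other probes below the filter at 0.01 and 7.9e-04. Serpina3c was at -0.65 ± 0.42 (adjusted p = 0.337), and as 1 of a cluster of near-identical mouse genes its probe may read others of them.

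Of 81 trypsin-like and elastase genes only 33 were tested, 35 being well above background in no spot, and 0 passed (limma; 1 had an unadjusted p under 0.05, Cela3b). Their median was -0.05. After Cela3b the largest values were the membrane protease Tmprss13 at -0.56 ± 0.60 (adjusted p = 0.471) and the kallikrein Klk1b3 at -0.43 ± 0.82 (adjusted p = 0.674), a member of another cluster of near-identical genes, whose second probe was on the other side of 0, at 0.11. Among 25 further serine proteases and Kunitz inhibitors, 23 were tested, 0 passed (limma; 2 had an unadjusted p under 0.05 higher and 1 lower), and the median was 0.02.

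In that last list 3 genes stood out in size. Corin, the protease that activates atrial natriuretic peptide, had ratios of 1.35, 1.22 and 1.56, a mean of 1.38 ± 0.17 (adjusted p = 0.0791). Coagulation factor X, F10, had -0.81, -1.49 and -1.19, a mean of -1.16 ± 0.34 (adjusted p = 0.173). Furin, which cuts proproteins, had 1.18, 1.31 and 0.14, a mean of 0.88 ± 0.64 (adjusted p = 0.336), with a second probe below the filter at 0.01. Of the 4 protease-activated receptors only F2r, the thrombin receptor, was tested, at 0.33 ± 0.59 (adjusted p = 0.673).

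**Figure D4:**
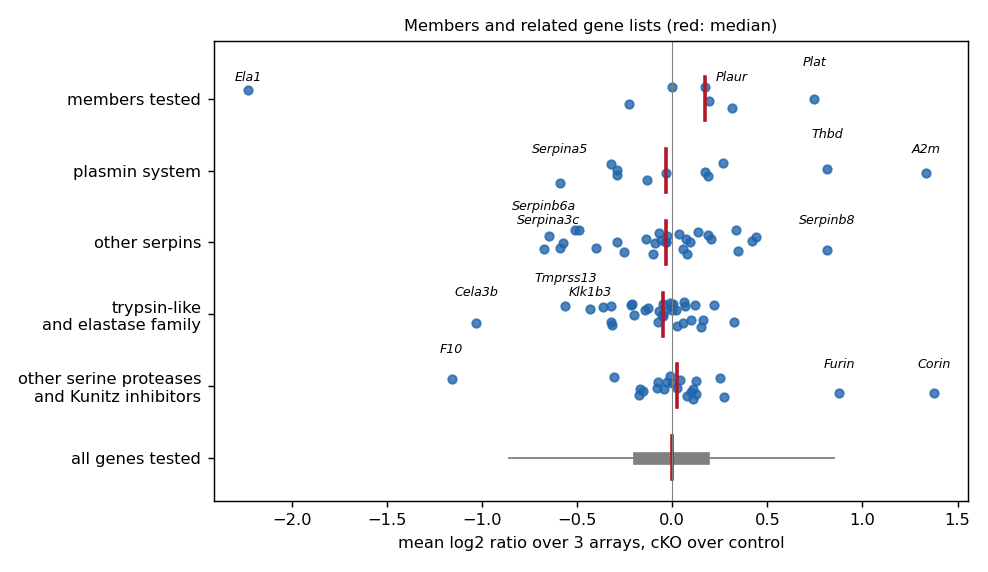
Mean log2 ratio over 3 arrays (x axis) of the 7 members tested and of the genes of 4 related lists, with the median of each in red and the 3 values largest in size named; the grey bar spans the middle 50% and the thin line the middle 98% of all genes tested. Ela1 lies at -2.23, outside that line, and the list medians lie between -0.05 and 0.02.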

How the data were processed

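Spot and background intensity values were written by Agilent's Feature Extraction software, version 9.1.3.1 (per the file headers). The log10 ratios that the authors deposited, red over green and so control over cKO, equal the series' value table. They come from processed intensity values with local background subtraction, detrending and dye normalisation by a linear and a LOWESS step, as stated per the file headers. They were turned to log2 of cKO over control and used as an alternative to the deposited intensity values. What else the submitters did is not given in the sources used here.

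Mean signals were corrected with the median local background (normexp, offset 50) and normalised by loess with control spots at weight 0 in limma 3.58.1 under R 4.3.3. Outlier spots (13, 4 and 0) were left out. Probes well above background in 1 channel on all 3 arrays were kept, and each gene was read by its brightest probe. lmFit and eBayes tested 17858 genes, and the fit was tested on simulated data. Aquantile scaling gave the signals of single pools. Normexp pulls ratios of dim probes toward 0. Names came from RefSeq's GRCm38.p6 table.

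Named besides the members were Arntl, the 3 largest values of each list and the 5 genes nearest to Ela1; genes well above background nowhere were named where few, and Star, Foxl2, Amy2a5, Lyz2, Fcgr1, Mrc1 and Smtn were named after their values were seen. Members and lists were chosen with earlier results of these data known. The arrays' number limits the precision, and alternatives are given at the end.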

Additional observations from a re-analysis of the deposited data

How the results depend on the processing

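The count of genes past the threshold, 31, depended on the processing. It was 53 with the scanner software's log ratio, 48 with the slide as a fixed block (a fit chosen after seeing the data), 1 with median centring and 1 with each kept probe tested by itself. It was 0 with the arrays scaled to a common spread (limma; 2302 genes at an unadjusted p under 0.05) and 0 without a filter on dim probes (3182). Leaving out 1 array gave 0 to 20 (4786 at an unadjusted p under 0.05 without replicate 3, where the count was 0, 1 called without replicate 1 and 20 without replicate 2). Ela1 kept its sign throughout but lost its call at -2.02 with median centring, -2.26 with scaled arrays, -2.23 without the filter and -2.23 with each probe tested by itself, and at -2.35 to -2.05 without 1 array. It kept its call in the other settings run, with adjusted p from 0.0269 to 0.0437. No other member passed under any setting. Plau changed sign with the scanner software's log ratio (-0.21) and ranged from -0.17 to 0.20 without 1 array. Prss35 was at -0.039 with that log ratio and from -0.11 to 0.76 without 1 array, Plaur from 0.14 to 0.59, Prss23 from -0.39 to 0.056, and Serpine2 from -0.0058 to 0.28. Serpinb2 moved to 0.92 with the scanner software's log ratio. The cause of these changes was not tested. Some settings also entail fewer arrays or a larger number of tests (27975 without the filter and 26429 for single probes). Median centring put the median of all genes at 0.12, relative to which Plat stood at 0.83 and Ela1 at -2.14. The slide as a random block could not be fitted, since limma does not estimate a correlation within slides from 3 arrays. No paired analysis was possible because the ratios form 1 group and each already pairs both genotypes on an array. Signal over background limits Serpinb2 and the third Plat probe.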
